A study of Drosophila melanogaster with 6 samples.

Results

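The genes described here encode Polycomb repressive complex 2 (PRC2) of Drosophila melanogaster: the core subunit genes E(z), esc, its paralog escl, Su(z)12 and Caf1-55, and the accessory subunit genes Pcl and Jarid2. They were chosen by name as known subunits, and all 7 of 7 were read by a probe set of their own, among 11982 genes named on the array. RNA came from the proventriculus, the valve-like organ at the entrance of the midgut, of instar 3 larvae, and was measured on 6 Affymetrix Drosophila 2.0 arrays. Larvae challenged with G418, an aminoglycoside toxic to eukaryotic cells, gave 2 arrays, and unchallenged larvae gave 2. Unchallenged F3 larvae with past exposure of the F1 generation gave 1 array, and unchallenged F3 larvae without past exposure gave 1. All groups, controls included, carried hairy-gal4 and UAS-neoGFP, a driver with the hairy gene's name and a transgene named for neomycin resistance and green fluorescent protein. The labels give no dose, no number of larvae per array and do not say that the 2 arrays of a group are independent dissections, so p-values here rest on array-to-array spread that may be purely technical.

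PRC2 is the enzyme complex that methylates a lysine in the tail of histone H3, a mark under which Polycomb group proteins keep developmental genes silent. E(z) carries the methyltransferase activity, which depends on Su(z)12 and on a WD-repeat subunit supplied by esc or escl. Pcl and Jarid2 are found in separate forms of the complex and affect where and how well it works, and the Polycomb system as a whole is best known for holding Hox and patterning genes off outside their domains.

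Values are RMA expression values on the log2 scale, on which a difference of 1 is 2-fold. Probe sets differ in how they respond to RNA, so levels are compared between arrays for 1 gene and not between genes. By mean brightness, the probe sets of the 7 genes ranked between percentile 55.1 (escl) and percentile 94.1 (Caf1-55) of the 18769 probe sets. Array medians lay between 4.92 and 5.03. The upper quartiles were less alike. G418 replicate 1 had the lowest, 7.78, and unchallenged replicate 2 the highest, 8.10, while the other arrays lay between 7.93 and 8.01. The probe sets of the 7 genes lay above the median, in the part of the range where the arrays were less well aligned. Genes listed for the labelled tissue were bright to differing degrees. Over the 6 arrays dve, named for its defective proventriculus phenotype, lay between 10.30 and 11.58. The foregut regulator drm lay between 9.76 and 11.28 and the forkhead factor fkh between 8.44 and 10.16. Of the same list, sob lay lower, between 7.43 and 8.39, and lin between 6.77 and 7.36. Unchallenged replicate 2 stood apart in several genes of nervous tissue, though not in all. The mean of 9 measured markers was 4.69 and 4.80 on the G418 arrays, against 4.77 and 6.69 on unchallenged replicates 1 and 2. It was 4.95 on the F3 array with and 4.81 on the one without past exposure. From unchallenged replicate 1 to 2, fne went from 3.89 to 9.69 and repo from 3.30 to 7.42. nSyb went only from 4.31 to 4.73, while para fell from 4.03 to 3.85 and Rbp9 from 6.72 to 6.23. Among the first 4 arrays unchallenged replicate 2 also held the highest value of every one of the 7 genes. Replicate 2 was above replicate 1 for 7 of the 7 genes among the unchallenged arrays, as for 50.5% of all genes, and for 5 of the 7 among the G418 arrays, as for 54.4% of all genes.

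**Figure D1:**
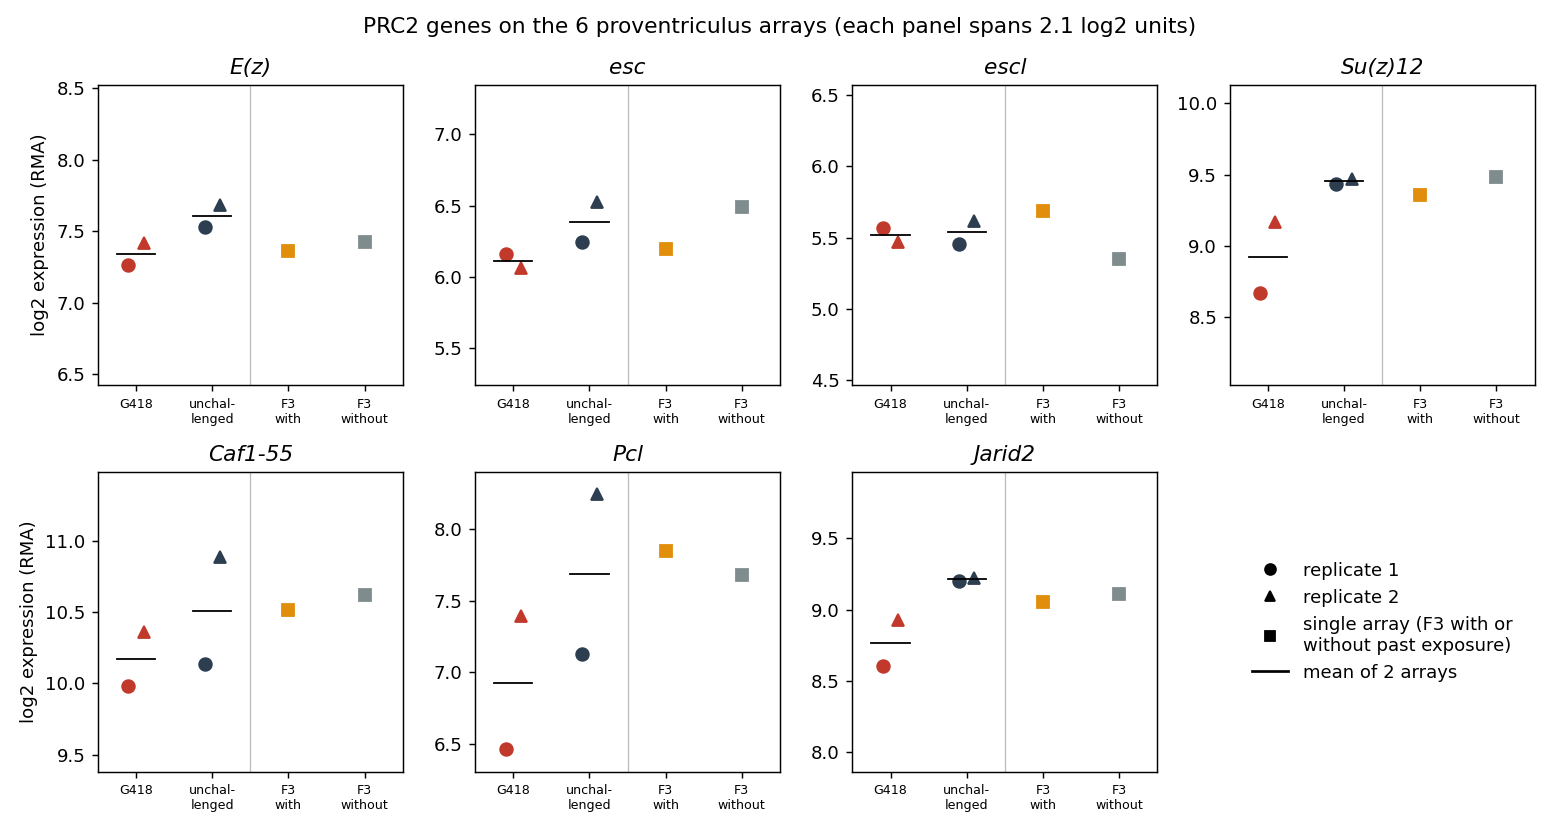
Log2 expression (RMA, vertical axis) of each PRC2 gene on the 6 arrays, with G418 left of unchallenged and the F3 array with past exposure left of the one without; circles are replicate 1, triangles replicate 2, squares single arrays and horizontal lines means of 2 arrays. Both G418 points lie below both unchallenged points for E(z), esc, Su(z)12 and Jarid2, while the groups overlap for escl, Caf1-55 and Pcl.

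The first comparison asked whether RNA levels differed between G418-challenged and unchallenged larvae. All 7 PRC2 genes had a lower mean with G418, by 1.01-fold for escl to 1.69-fold for Pcl, and the median log2 change over the 7 was -0.34; escl turned the other way after a further quantile normalization, leaving 6 lower, and 5 were lower without unchallenged replicate 2. Over all genes 52.3% had a lower mean with G418 and the median change was -0.02. Among the 7635 genes at or above the median brightness, where the PRC2 probe sets also lie, 63.9% had a lower mean and the median was -0.11. None of the 7 passed the test: limma, with Benjamini-Hochberg adjustment over 18769 probe sets at a threshold of 0.05, called 0 of the 7 and 0.0% of all probe sets in either direction. At an unadjusted p under 0.05 it gave 0 of the 7, against 664 probe sets (3.54%).

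The clearest separation was in Su(z)12 and Jarid2. Su(z)12, a core subunit that holds the complex together, was at 8.67 and 9.17 on the G418 arrays, against 9.43 and 9.47 on the unchallenged arrays. Jarid2, an accessory subunit related to histone demethylases but without their activity, was at 8.61 and 8.93 on the G418 arrays, against 9.20 and 9.22 on the unchallenged arrays. For both genes the unchallenged arrays lay close together, G418 replicate 1 lay furthest down, and the groups did not overlap. The log2 change of Su(z)12 was -0.53 ± 0.22 (SE), 1.45-fold lower, with a 95% interval from -1.12 to 0.06, an unadjusted p of 0.067 and an adjusted p of 0.788 in limma. That of Jarid2 was -0.44 ± 0.17 (SE), 1.36-fold lower, with an interval from -0.91 to 0.02, an unadjusted p of 0.0578 and an adjusted p of 0.788 in limma. Without unchallenged replicate 2 the changes were -0.51 and -0.43, nearly as large. Without G418 replicate 1 both were -0.28, so each was smaller against the other G418 array alone.

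E(z), the catalytic subunit, had smaller differences. It was at 7.27 and 7.42 on the G418 arrays, against 7.53 and 7.68 on the unchallenged arrays, again without overlap. The log2 change was -0.26 ± 0.15 (SE), 1.20-fold lower, with an adjusted p of 0.788 in limma. The gap between the nearest arrays of the 2 groups, -0.11, was smaller than the distance of 0.15 between the arrays within each group.

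Caf1-55 and Pcl varied most between replicate arrays. Caf1-55, a histone-binding WD-repeat protein that also serves in other chromatin complexes, was at 9.98 and 10.36 on the G418 arrays, against 10.14 and 10.88 on the unchallenged arrays. Pcl, an accessory subunit that promotes high levels of the mark, was at 6.46 and 7.39 on the G418 arrays, against 7.13 and 8.25 on the unchallenged arrays. In both genes G418 replicate 2 lay above unchallenged replicate 1, so the groups overlapped. Pcl had the largest change of the 7, -0.76 ± 0.52 (SE), but its unchallenged arrays differed by 1.12 and its G418 arrays by 0.93 (adjusted p = 0.788 in limma). The change of Caf1-55 was -0.34 ± 0.32 (SE), with unchallenged arrays that differed by 0.75 (adjusted p = 0.801 in limma). Without unchallenged replicate 2 the change of Pcl was -0.20 and that of Caf1-55 turned to 0.03. The 2 genes ran together over the 6 arrays (Pearson's r 0.96), as did Su(z)12 and Jarid2 (0.98). These correlations are descriptions over 6 arrays that share their processing and the differences between groups.

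In all, 4 of the 7 genes (E(z), esc, Su(z)12 and Jarid2) had no overlap, with G418 below unchallenged, against 20.1% of all genes and 26.2% of genes at or above the median brightness. The count was 7 without unchallenged replicate 1, when a single unchallenged array remained, and 4 without unchallenged replicate 2. Leaving out an array can only keep or raise the count. The shares above are for 2 arrays against 2 on the deposited values, so they are no background for those counts. After a further quantile normalization, which also aligns the upper quartiles, the count was 3, since esc then overlapped. The shares above are for the deposited values and do not cover that scaling, so this count has no background either. The median over the 7 was then -0.31, with E(z) at -0.11 and esc at -0.12, against 0.002 over all genes. Under that scaling 6 of the 7 had a lower mean, against 49.6% of all genes. With unchallenged replicate 2 left out, the median over the 7 was -0.19, and with G418 replicate 2 left out it was -0.53. Between single arrays it ran from -0.62, for G418 replicate 1 minus unchallenged replicate 2, to -0.11, for G418 replicate 2 minus unchallenged replicate 1. RNA came from whole organs, so fewer cells of a type and less RNA per cell cannot be told apart.

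**Figure D2:**
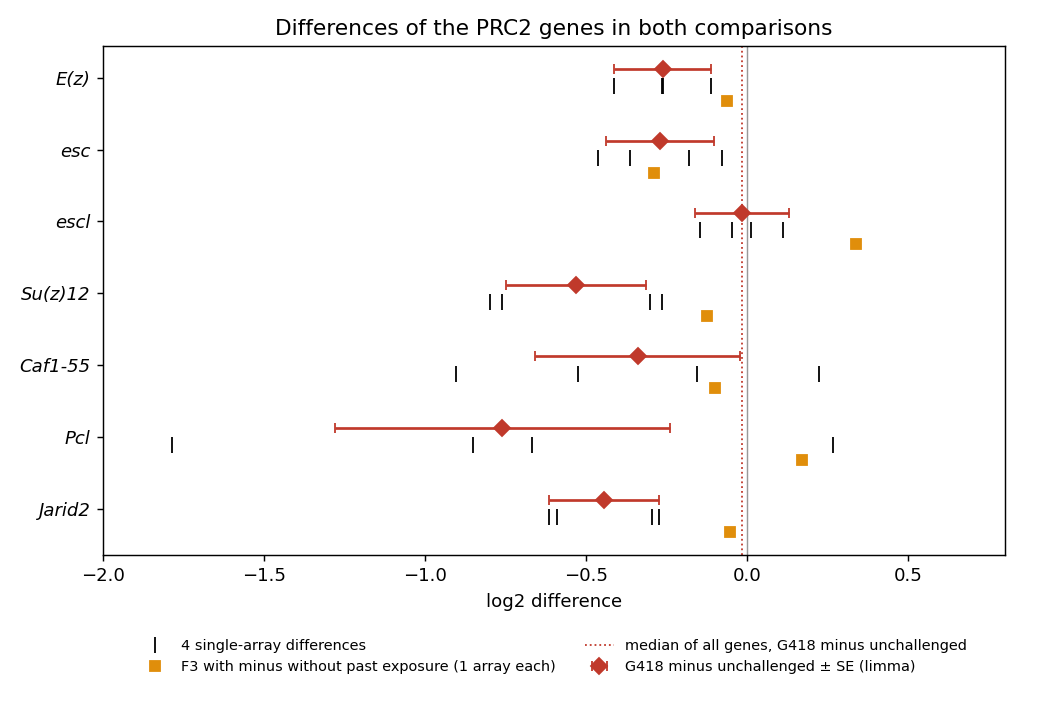
Log2 differences (horizontal axis) of the 7 PRC2 genes: diamonds with bars are G418 minus unchallenged with the SE from limma, ticks the 4 differences between single G418 and single unchallenged arrays, squares the F3 array with minus the F3 array without past exposure, and the dotted line the median of all genes at -0.02. All 4 ticks are below 0 for E(z), esc, Su(z)12 and Jarid2, and the ticks of Pcl spread from -1.79 to 0.26.

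The paralogs esc and escl were compared next. Both encode the WD-repeat subunit that binds the methylated histone tail and is needed for methylation, and in Drosophila esc is known for its early embryonic role while escl contributes later in development. In the RefSeq annotation (Release 6) both genes lie on chromosome arm 2L, with 28 annotated genes between them. esc was at 6.16 and 6.06 on the G418 arrays, against 6.24 and 6.53 on the unchallenged arrays. escl was at 5.57 and 5.47 on the G418 arrays, against 5.46 and 5.61 on the unchallenged arrays. The G418 arrays thus lay below both unchallenged arrays for esc and within their range for escl. esc had a log2 change of -0.27 ± 0.17 (SE), 1.21-fold lower (adjusted p = 0.788 in limma), and -0.13 without unchallenged replicate 2. escl had a change of -0.02 ± 0.15 (SE), with a 95% interval from -0.42 to 0.38 (adjusted p = 0.975 in limma), and its sign turned with the choice of arrays and scaling. That interval covers the change measured for esc, so it does not show that escl stayed level.

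The difference between the paralogs was read within each array, as esc minus escl. It was 0.59 on both G418 arrays, against 0.79 and 0.91 on the unchallenged arrays. The G418 mean was 0.594 ± 0.001 and the unchallenged mean 0.849 ± 0.089 (SD, n = 2 arrays each), a shift of -0.25 with no overlap. An exact two-sided permutation test gave p = 0.333, the smallest that 2 arrays against 2 allow, so the test could not have passed. Leaving out 1 array at a time gave shifts from -0.32 to -0.19. After a further quantile normalization esc minus escl was 0.71 and 0.54 on the G418 arrays, against 0.79 and 0.84 on the unchallenged arrays, a shift of -0.19. The closeness of the 2 G418 arrays was thus lost under that scaling, and the groups still did not overlap. The lack of overlap was not particular to this pair. On the deposited values E(z) minus escl shifted by -0.25, escl minus Su(z)12 by 0.51 and escl minus Jarid2 by 0.43, also without overlap. E(z) minus Su(z)12 and E(z) minus Jarid2 did not overlap either, while the groups overlapped for every other pair of the 7 genes.

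A further probe set is listed for both escl and Qtzl and was assigned to neither. It was at 8.27 and 8.33 on the G418 arrays, against 8.34 and 8.36 on the unchallenged arrays, and at 8.46 and 8.29 on the F3 arrays with and without past exposure. Its G418 change of -0.05 ± 0.13 (SE) was small, as was that of the probe set for escl alone, and both were higher on the F3 array with past exposure.

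**Figure D3:**
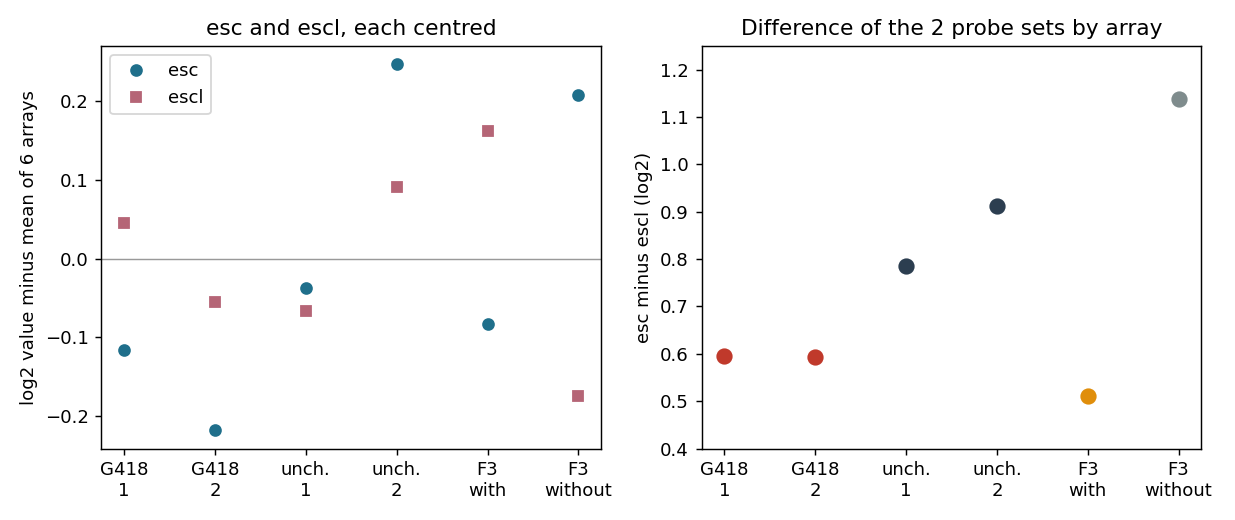
Left, esc (circles) and escl (squares) on each array as log2 value minus that gene's mean over the 6 arrays; right, esc minus escl (log2) on each array, on an axis that starts at 0.4, with unchallenged written as unch. and F3 arrays marked with or without past exposure. On the F3 arrays the paralogs lie on opposite sides of 0 in opposite order, and esc minus escl is 0.51 with past exposure and 1.14 without it.

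The second comparison set F3 larvae with past exposure of the F1 generation against F3 larvae without it, with 1 array each and no replicate check. All 7 genes were within 1.26-fold, and 0 of the 7 reached 2-fold, which 1.54% of all genes did, or 1.5-fold, which 4.44% did. The median difference over the 7 was -0.06, against 0.02 over all genes, with 5 genes lower and 2 higher with past exposure. Among all genes 46.8% were lower.

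The largest differences of the 7 were those of the paralogs, in opposite directions. esc was at 6.20 with past exposure and 6.49 without it, a difference of -0.29. escl was at 5.69 with past exposure and 5.35 without it, a difference of 0.34. Within the replicated groups, replicate 2 minus replicate 1 was 0.28 (unchallenged) and -0.10 (G418) for esc. For escl it was 0.16 and -0.10, in the same order. Both F3 differences exceeded these distances in size, that of esc only just. Differences at least as large in size were found in 17.3% of all genes for esc and 13.0% for escl. esc minus escl was 0.51 with past exposure and 1.14 without it, a difference of -0.63, against 0.13 between the unchallenged replicates and -0.0012 between the G418 replicates. After a further quantile normalization it was 0.50 with past exposure and 1.15 without it, a difference of -0.65, while the G418 arrays had the 0.71 and 0.54 given above.

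The other core and accessory genes differed less on the F3 arrays. E(z) was at 7.36 with past exposure and 7.43 without it, and Su(z)12 at 9.36 and 9.48. Caf1-55 was at 10.52 with past exposure and 10.62 without it, and Jarid2 at 9.05 and 9.11. Pcl was at 7.85 with past exposure and 7.68 without it, the other gene with a higher value. Both F3 arrays lay above both G418 arrays for Su(z)12, Caf1-55, Pcl and Jarid2 and for esc, and not for E(z) or escl.

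Ordered over the 6 arrays, unchallenged replicate 2 was highest for 5 of the 7 genes, the exceptions being Su(z)12, which peaked on the F3 array lacking past exposure, and escl, which peaked on the exposed F3 array. G418 replicate 1 was lowest for 5, the exceptions being esc, lowest on G418 replicate 2, and escl, lowest on the F3 array without past exposure. escl was the member whose order differed most from the rest: its r with the other 6 genes lay between -0.19 and 0.20, whereas the others had r between 0.59 and 0.98 among themselves.

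The arrays were also set side by side by any exposure, of the larvae themselves or of their F1 ancestors, a grouping chosen after the values were seen and given with no test. E(z), esc, Su(z)12 and Jarid2 were lower on all 3 arrays with exposure (both G418 arrays and the F3 array with past exposure) than on all 3 without it, which makes 4 of the 7 genes, against 5.83% of all genes. These 4 had no overlap between G418 and unchallenged arrays to begin with, and among the 2404 genes of that kind 29.0% showed the pattern over all 6 arrays. esc had 6.16, 6.06 and 6.20 with exposure, against 6.24, 6.53 and 6.49 without. esc minus escl had 0.59, 0.59 and 0.51 with exposure, against 0.79, 0.91 and 1.14 without. Su(z)12 had 8.67, 9.17 and 9.36 with exposure, against 9.43, 9.47 and 9.48 without. For E(z) the pattern was lost after median centring, and for esc after a further quantile normalization. Among the 41 other chromatin genes described next, 6 showed it.

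Few genes followed esc or escl closely. Among 7628 other genes at or above the median brightness, 31 had r of at least 0.9 with esc over the 6 arrays and 19 with escl. Closest to esc were CG13484 (r 0.99), Sirt7, cbc and Pomp (each 0.95) and GV1 (0.95). Closest to escl were Gorab (0.99), CG9344 (0.98), CG13088 and CG3358 (each 0.97) and CG11790 (0.96). The mean of the 7 centred genes, by contrast, was matched at that level by 1146 of the 7628, led by feo, a spindle midzone protein gene, Phs, the Toll receptor gene Tl, the helicase gene Pif1 and CG4751, each with r of 0.997 or 0.998.

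Genes that work with or against PRC2 were counted from lists written by hand, and for every list limma called 0 genes higher and 0 lower. The 4 genes listed as PRC2-associated, HDAC1, corto, jing and Sirt1, all had a lower mean with G418 and a median change of -0.45, with 0 of 4 free of overlap, against the 26.2% of genes at or above the median brightness that had no overlap with G418 below unchallenged. With unchallenged replicate 2 left out their median was -0.11, and with G418 replicate 1 left out -0.28. HDAC1, a histone deacetylase gene, was at 7.67 and 8.37 on the G418 arrays, against 8.21 and 9.12 on the unchallenged arrays. jing, the fly relative of the mammalian PRC2 cofactor gene AEBP2, had a change of -0.54 ± 0.38 (SE), and it differed by -0.65 between the F3 arrays with and without past exposure. All 5 measured genes of PRC1 and PR-DUB, the complexes that place and remove a Polycomb mark on histone H2A, had a lower mean, with a median of -0.53, Asx at -0.53 ± 0.21 and Pc at -0.61 ± 0.27 (SE). That median was -0.37 with 4 of 5 lower without unchallenged replicate 2, and -0.27 without G418 replicate 1.

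Of 8 DNA-binding recruiters and their partners 7 had a lower mean (median -0.45), with lolal at -0.50 ± 0.17 (unadjusted p = 0.0373 and adjusted p = 0.788 in limma) and Trl, the GAGA factor gene, the other way at 0.06. The recruiters' median became -0.12 when unchallenged replicate 2 was left out and -0.21 when G418 replicate 1 was. Genes that counteract Polycomb silencing had changes of the same sign as the complex: 7 of 8 had a lower mean (median -0.44), with osa, a Brahma complex subunit gene, at -0.62 ± 0.24 and Utx, which encodes a demethylase for the PRC2 mark, at -0.60 ± 0.33 (SE), while nej, the CBP acetyltransferase gene, was at 0.12. Leaving out the same arrays put this median at -0.15 and -0.25. All 17 measured genes of the other complexes that contain Caf1-55 had a lower mean (median -0.37), among them Rbf at -0.52 ± 0.18 and MTA1-like at -0.39 ± 0.16. Without unchallenged replicate 2, 11 of the 17 Caf1-55 partners had a lower mean and the median was -0.12. Counting each gene once, 39 of these 41 other chromatin genes had a lower mean, 19 had no overlap with G418 below unchallenged, and their median was -0.42. Among genes at or above the median brightness 63.9% had a lower mean, 26.2% had no overlap in that direction and the median was -0.11. At an unadjusted p under 0.05 limma gave 2 of the 41, against 3.54% of all probe sets. Asx, Pc, lolal, osa, Utx, Rbf and MTA1-like were named for having some of the smallest unadjusted p in their lists.

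Classical Polycomb target genes, as far as measured, did not have higher means with G418 as a list. The Hox genes Ubx, abd-A and Abd-B, and also wg and hth, had no probe set with 1 symbol and are not covered. Of 18 measured, 15 had a lower mean, 9 had no overlap with G418 below unchallenged, and the median was -0.60, or -0.17 with 10 of 18 lower without unchallenged replicate 2. Over all genes 52.3% had a lower mean, 20.1% had no overlap in that direction and the median was -0.02. The target probe sets were dim on average: the mean level of the list was 4.43 and 4.32 on the G418 arrays, against 4.55 and 5.83 on the unchallenged arrays, and 4.36 and 4.35 on the F3 arrays with and without past exposure, below the array medians everywhere but on unchallenged replicate 2. In several of them unchallenged replicate 2 stood far above the other arrays. dac, an eye and leg regulator gene, was at 3.56 and 3.46 on the G418 arrays, against 4.28 and 7.86 on the unchallenged arrays. Dll, the limb selector gene, was at 4.27 and 4.16 on the G418 arrays, against 4.94 and 5.97 on the unchallenged arrays. Antp, a Hox gene, had the largest F3 difference of the list, at 5.37 with past exposure and 4.65 without it.

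Markers of dividing cells and of other tissues differed between the same arrays. All 15 measured replication and cell cycle genes had a lower mean with G418, with a median of -0.61 (11 of 15 and -0.27 without unchallenged replicate 2), and their mean level was 6.75 and 7.12 on the G418 arrays, against 7.19 and 7.87 on the unchallenged arrays. The 8 measured proventriculus and foregut genes also all had a lower mean (median -0.52, and 5 of 8 without G418 replicate 1), at 8.35 and 8.98 on the G418 arrays, against 9.02 and 9.28 on the unchallenged arrays. All 9 salivary glue and new glue genes had a higher mean (median 3.08), at 12.75 and 9.92 on the G418 arrays, against 7.18 and 9.19 on the unchallenged arrays. Without G418 replicate 1 only 6 of these 9 had a higher mean: the new glue genes ng1, ng2 and ng3 were at 10.02, 10.39 and 12.25 on that array and at 3.33, 3.40 and 5.38 on G418 replicate 2. All 6 haemocyte genes had a lower mean (median -0.58), at 6.62 and 6.97 on the G418 arrays, against 7.71 and 6.91 on the unchallenged arrays, and all 6 were higher on the F3 array with past exposure (median 0.67). Without unchallenged replicate 1, Hml and srp had a higher mean with G418. On unchallenged replicate 2 Hml was at 6.28 and srp at 8.17, below both G418 arrays (6.37 and 6.79 for Hml, 8.29 and 8.66 for srp). All 4 measured muscle genes had a higher mean (median 0.46, and 2 of 4 without unchallenged replicate 2), at 7.99 and 8.15 on the G418 arrays, against 7.91 and 7.40 on the unchallenged arrays, and were higher with past exposure (median 0.82). The part of these genes' cells in the PRC2 values was not tested. Differences between the unchallenged arrays were taken gene by gene, as replicate 2 minus replicate 1. Their median was 0.67 over the replication list's genes and 1.10 over the nervous list's. Su(z)12 differed by 0.04, Jarid2 by 0.02, Caf1-55 by 0.75 and Pcl by 1.12. Between the G418 arrays these differences were 0.36, 0.09, 0.50, 0.32, 0.38 and 0.93, in the same order. On the F3 arrays the replication list was at 7.46 both with and without past exposure, while 5 fat body genes averaged 10.71 with past exposure and 6.97 without it.

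**Figure D4:**
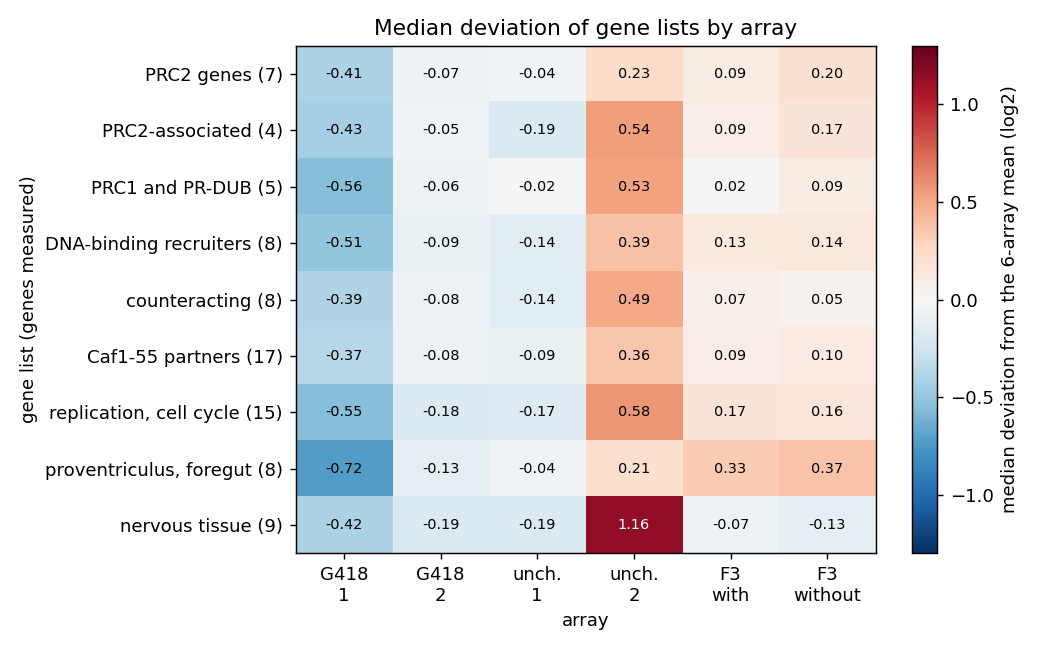
Median deviation (log2, colour and printed number) of each gene list from its genes' means over the 6 arrays, with arrays in columns (unchallenged written as unch., F3 with or without past exposure) and lists in rows, each with its number of measured genes. The PRC2 row and the other chromatin and cell cycle rows share their lowest value on G418 replicate 1 and their highest on unchallenged replicate 2.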

How the data were processed

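Per the submitters' processing notes, the authors made the deposited log2 values with RMA in Affymetrix Expression Console; a software version is not given in the sources used here, nor is it stated if the 6 arrays went through RMA as 1 set. Of 18952 probe sets 183 were controls and were left out. Names came from the array's annotation and were brought up to date by gene identifier with a RefSeq gene table, which gave 13647 probe sets 1 symbol, 402 several and left 4720 unnamed here. A gene was read from its brightest probe set with 1 symbol; each PRC2 gene had 1. Listed genes with no such probe set are not analysed here.

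The G418 comparison used limma 3.58.1 in R 4.3.3 (lmFit, eBayes), without a replicate block, and the calculation was checked on simulated data. Arrays have no depth; their number limits the precision. The 7 genes and all lists were chosen with earlier results of these data known. Up to 4 genes per list with the smallest unadjusted p could be named, plus the one with the largest F3 difference, and the 5 genes most correlated with esc, escl and the mean of the 7. The list genes dve, drm, fkh, Trl, repo, nSyb, para, Rbp9, ng1, ng2, ng3, Hml and srp fall outside this rule and were chosen after their values were seen. Alternatives covered the block, the variance prior, a filter on dim probe sets, scaling, the probe set rule, thresholds, an added F3 array and leaving out arrays.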

Additional observations from a re-analysis of the deposited data

How the results depend on the processing

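No PRC2 gene passed the test under any alternative run. Limma called 1 probe set (GstD2) with a trended robust prior, 1 at an adjusted p of 0.1, 1 with the F3 array without past exposure added to the unchallenged arrays, and 0 to 251 with 1 array left out (251 without unchallenged replicate 1, 4 without unchallenged replicate 2). With the replicate number as a block it called 0, with 2187 probe sets at an unadjusted p under 0.05, and 3 of the 7 genes were there (Pcl at 0.00782, Jarid2 at 0.0489, Su(z)12 at 0.0493, lowest adjusted p 0.342); same-numbered arrays had deviations with r of 0.315 over probe sets, but nothing in the labels makes a shared number a pair. The change of escl turned to 0.067 after a further quantile normalization and 0.045 with the F3 array added, and ran from -0.096 to 0.061 with 1 array left out; that of Caf1-55 ran from -0.72 to 0.034. Quantile normalization left E(z) at -0.11 and esc at -0.12, and esc then overlapped between groups. With 1 array left out, the count of PRC2 genes without overlap, which this can only keep or raise, ran from 4 to 7. The median of the PRC2 genes then ran from -0.53 to -0.19, and esc minus escl from -0.32 to -0.19. Between single arrays, added after seeing the data, the median was -0.62 for G418 replicate 1 minus unchallenged replicate 2 and -0.11 for G418 replicate 2 minus unchallenged replicate 1. Each PRC2 gene has 1 probe set, so averaging probe sets changed nothing for them. The causes were not tested.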
